A study of Rattus norvegicus with 23 samples.

Results

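Genes of the enzymes and remodelers that write, erase or move chromatin marks were followed through 23 rat RNA-seq libraries. They were taken by symbol from the authors' tables: every gene whose name begins with Hdac, Kdm, Kmt, Smarc, Dnmt, Ezh, Prmt, Prdm or Setd, or is Chd or Tet followed by digits. The rule gave 90 gene identifiers with 89 symbols, since Setdb2 has 2 identifiers, out of 14690 named ones. Of the 90, 87 are listed in the count files of all groups, and Hdac6, Kmt5a and the second Setdb2 identifier (ENSRNOG00000053915) are listed in the differentiating CG4 files alone.

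CG4 is an immortalized line from rat brain oligodendroglia. Its cells were transduced to express Zfp488 with a myc tag and EGFP (the Zfp488 group), Nkx2.2 with a T7 tag and EGFP (the Nkx2.2 group) or EGFP alone (control), in each case from the pCAG promoter with an IRES before EGFP, and were differentiated for 3 days, with 4 libraries per group. Another 3 libraries came from proliferating wild-type CG4 cells that carried no vector. Wild-type primary oligodendroglia, shaken off mixed glial cultures of rat brain, gave 4 libraries after 3 days of differentiation and 4 proliferating libraries. Differentiation medium held thyroid hormone and CNTF, and proliferation medium held bFGF and PDGF-AA, in both kinds of cell. Zfp488 and Nkx2.2 are transcription factors of the oligodendrocyte lineage, and pCAG is a constitutive promoter. Reads were 150 bases long in all groups except proliferating CG4 cells, where they were 100 bases long.

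Chromatin marks are set by opposing enzymes. DNA methyltransferases of the DNMT family add methyl groups to cytosine and TET enzymes oxidize them; histone deacetylases (HDAC) remove acetyl groups; KMT, SETD, EZH and PRMT enzymes methylate histones and other proteins, and KDM enzymes remove methyl groups from lysines. CHD and SMARC proteins are the motors and subunits of complexes that slide or evict nucleosomes. In mice, histone deacetylases, Dnmt1 and the remodelers Chd7 and Smarca4 (Brg1) are known to be needed for normal oligodendrocyte development.

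Libraries held 20063345 to 49206479 counts. Levels are given as CPM, a count relative to the TMM-scaled total of its library, and changes as log2 fold changes with their standard errors. A gene is called when the adjusted p of the edgeR quasi-likelihood test is under 0.05. Zfp488 stood at 166.6 ± 28.95 CPM in Zfp488 libraries and 42.38 ± 11.32 CPM in control libraries, and Nkx2-2 at 1621 ± 310.9 CPM in Nkx2.2 libraries and 270.5 ± 41.52 CPM in control libraries (SD, n = 4 each). All 8 oligodendrocyte markers rose with differentiation in both kinds of cell. Of 4 progenitor markers, 3 were tested, and in primary cells 1 rose and 1 fell. Their sum was 1210 to 1330 CPM in differentiating and 1450 to 1530 CPM in proliferating primary libraries. In CG4 cells 2 of the 3 were lower in differentiating control cells and none was higher. The summed level of 18 replication and division genes was 927 to 1170 CPM in differentiating control and 5210 to 5860 CPM in proliferating CG4 libraries, and 945 to 995 CPM in differentiating and 3480 to 3570 CPM in proliferating primary libraries. The 2 measured microglia markers of 7 summed to 17.9 to 24.1 CPM in differentiating and 442 to 461 CPM in proliferating primary libraries, and to 3.39 to 8.79 CPM in CG4 libraries. The differentiating primary libraries formed 2 close pairs, 1 with 2 and 3 with 4.

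**Figure D1:**
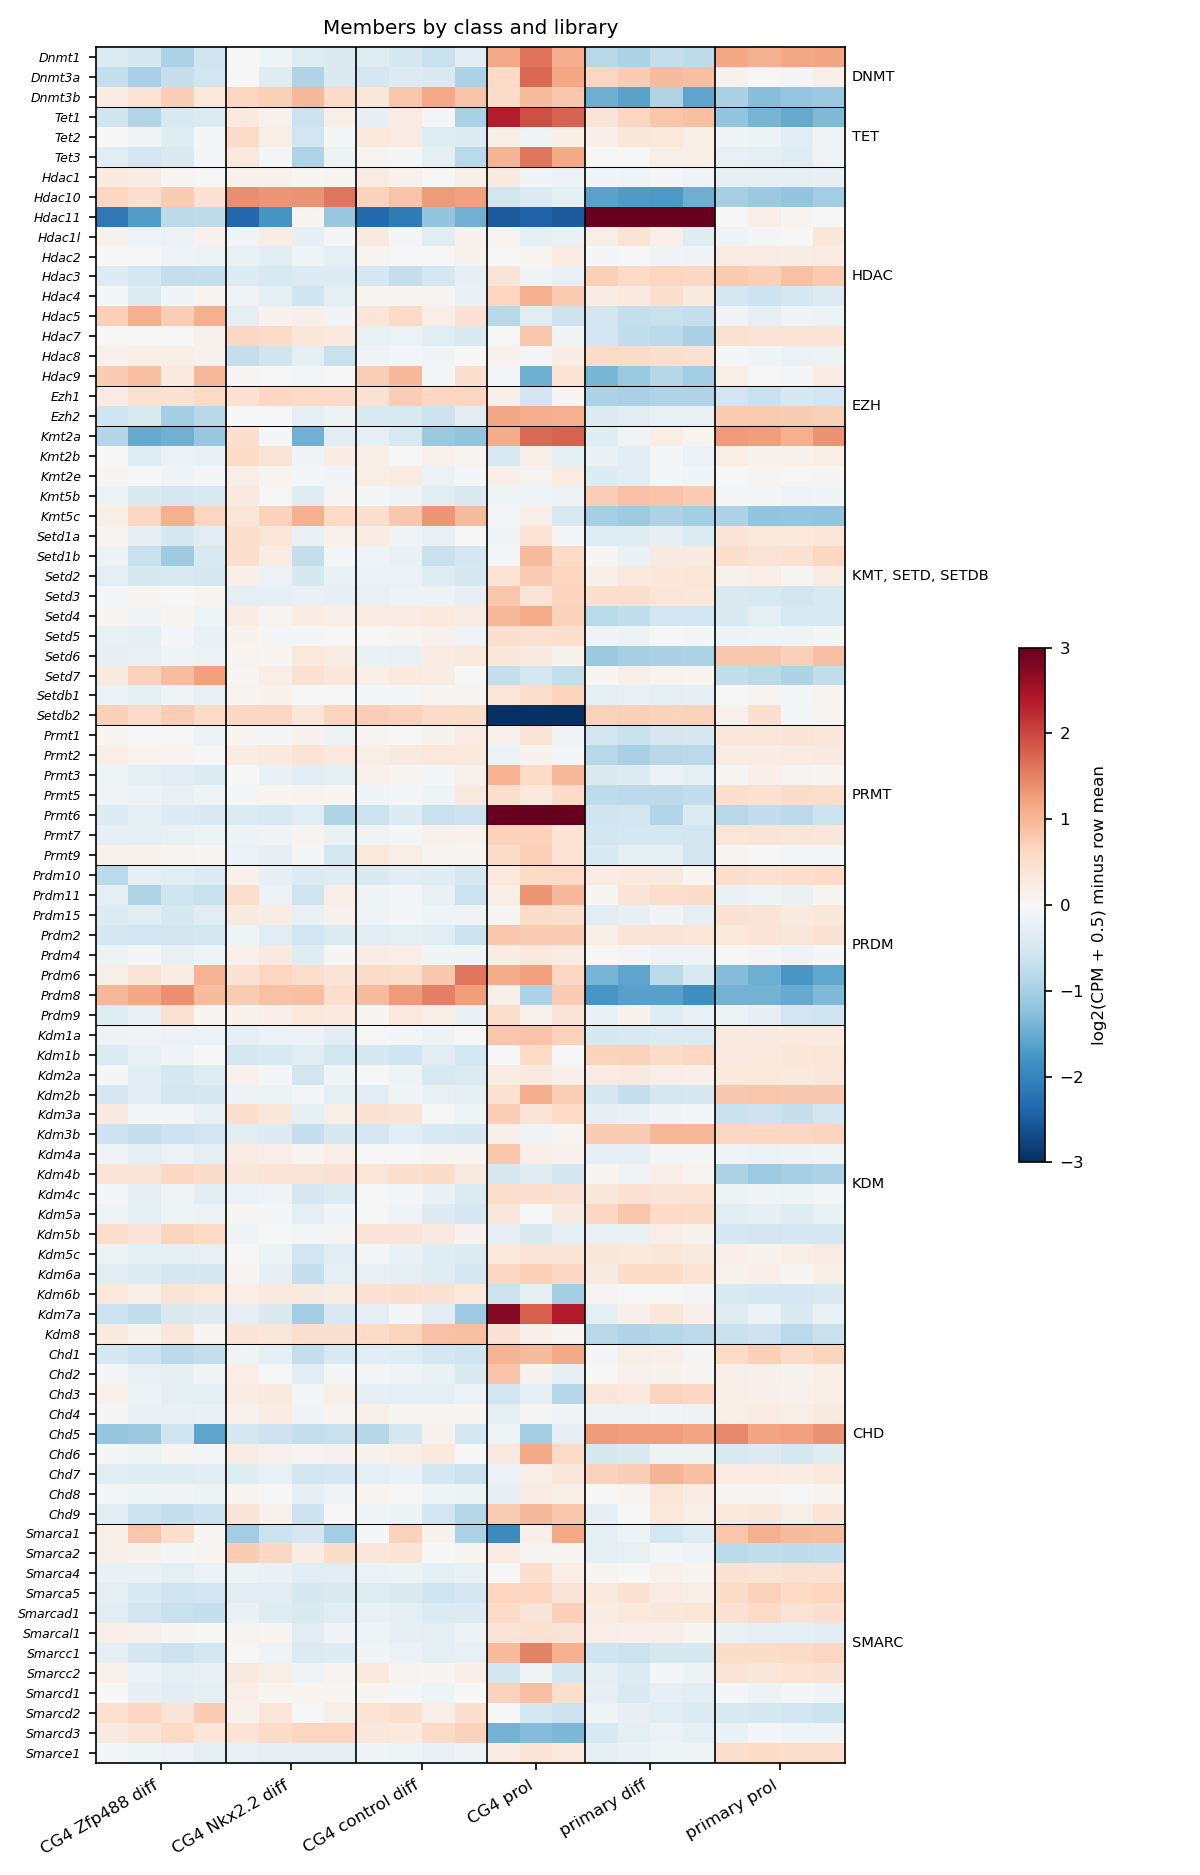
Levels of 86 of the 87 members listed in all files (rows, by class) in the 23 libraries (columns, by group), as log2(CPM + 0.5) minus the row's mean over all libraries; the colour scale ends at -3 and 3. Hdac11 is high in the 4 differentiating primary libraries, and Prmt6, Tet1 and Kdm7a are high in the 3 proliferating CG4 libraries, where Setdb2 (ENSRNOG00000021680) has no count.

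Differentiation of primary oligodendroglia was accompanied by a rise of all 3 TET genes and of most KDM genes, and by a fall of most PRMT and SMARC genes and of the genes of both EZH enzymes. Hdac11 had the largest rise of any member. Of 86 members tested, 30 rose and 37 fell, or 77.9%, against 84.7% of all genes tested, so members as a whole were not called more often than other genes. By direction, 34.9% of members rose, against 41.5% of all genes, and 43% fell, against 43.2% of all genes. With a replicate block 69 members were called, against 84.6% of all genes. Replication genes fell in the same comparison (18 of 18), as did both measured microglia markers and both measured fibroblast, pericyte and endothelium markers of 5 (summed 5.54 to 10.6 CPM in differentiating and 57 to 78.9 CPM in proliferating libraries). Of the 4 measured astrocyte markers of 5, 3 rose (1010 to 2100 CPM in differentiating and 166 to 177 CPM in proliferating libraries), as did all 3 Schwann cell markers (26.7 to 70.6 CPM and 6.03 to 8.24 CPM in differentiating and proliferating libraries), while 4 of 5 neuron markers fell and 1 rose (385 to 486 CPM in differentiating and 714 to 741 CPM in proliferating libraries). The part of these lists in the members' changes was not tested. In bulk RNA, fewer cells of a type and less RNA per cell cannot be told apart.

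Among the DNA methyltransferases, Dnmt1, which copies methylation onto the new strand after replication, was at 127, 120, 139 and 133 CPM in differentiating and 507, 478, 505 and 516 CPM in proliferating primary libraries. The groups lie far apart, and the fall was -1.91 ± 0.05 on the log2 scale (adjusted p = 3.53e-11). Dnmt3a, a de novo methyltransferase, moved the other way, with 92.5, 101, 115 and 110 CPM in differentiating and 63.7, 60.1, 56.5 and 66.4 CPM in proliferating primary libraries (0.80 ± 0.07, adjusted p = 1.16e-06). Dnmt3b stood at 1.275 ± 0.443 and 1.574 ± 0.187 CPM (SD, n = 4 each) in differentiating and proliferating primary cells and was not called (adjusted p = 0.247).

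Tet1 was at 24.5, 29.4, 33.5 and 35.2 CPM in differentiating and 8, 6.84, 6.29 and 7.22 CPM in proliferating primary libraries, a rise of 2.15 ± 0.12 (adjusted p = 2.11e-08). No library of one group reached the range of the other. Tet2 rose by 0.47 ± 0.06 (adjusted p = 2.24e-05) and Tet3 by 0.37 ± 0.07 (adjusted p = 0.00026).

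Hdac11, the single class IV deacetylase, was at 235, 212, 202 and 189 CPM in differentiating and 2.32, 2.75, 2.46 and 2.33 CPM in proliferating primary libraries. This is an 87.5-fold difference (log2 fold change 6.45 ± 0.09, adjusted p = 1.68e-13), resting on 20164 and 291 counts. Of the 11 HDAC genes tested, 4 rose and 5 fell. Hdac8, a class I enzyme, rose by 0.70 ± 0.06 (adjusted p = 3.69e-07), while the class IIa genes Hdac9 and Hdac7 fell by -1.23 ± 0.12 (adjusted p = 1.56e-06) and -1.16 ± 0.08 (adjusted p = 5.96e-08). The class I pair that serves shared corepressor complexes split: Hdac1 rose by 0.23 ± 0.04 (adjusted p = 6.86e-05) and Hdac2 fell by -0.26 ± 0.03 (adjusted p = 2.32e-05). Hdac3 was not called (-0.10 ± 0.04, adjusted p = 0.0504) but passed without a filter on low counts (adjusted p = 0.0359) and without proliferating library 2 or differentiating library 1 (adjusted p = 0.027 and 0.0284).

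Ezh2, a catalytic subunit of Polycomb repressive complex 2, was at 58.8, 62.7, 66.8 and 66.9 CPM in differentiating and 135, 136, 133 and 130 CPM in proliferating primary libraries, without overlap (-1.03 ± 0.05, adjusted p = 3.98e-09). Its alternate Ezh1 also fell, by -0.33 ± 0.07 (adjusted p = 0.000743). Of 15 KMT, SETD and SETDB genes tested, 5 rose and 7 fell. Setd6, a lysine methyltransferase of non-histone proteins, fell to 6.06 to 6.76 CPM in differentiating libraries, against 22.6 to 26 CPM in proliferating ones (-1.86 ± 0.07, adjusted p = 3.49e-10), and Kmt2a, the H3K4 methyltransferase MLL1, fell by -1.23 ± 0.11 (adjusted p = 3e-06). Setd3, known as an actin histidine methyltransferase, rose by 0.94 ± 0.05 (adjusted p = 4.56e-09).

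Of 7 PRMT genes, 6 fell and none rose. Prmt5, which makes symmetric dimethylarginine, was at 71.6, 70.7, 70.1 and 72.4 CPM in differentiating and 169, 168, 179 and 174 CPM in proliferating primary libraries (-1.23 ± 0.04, adjusted p = 7.17e-11). Prmt1, the main asymmetric enzyme, fell by -0.86 ± 0.05 (adjusted p = 1.56e-08), and the exception was Prmt6, at 0.515 ± 0.135 and 0.417 ± 0.048 CPM in differentiating and proliferating cells (SD, n = 4 each). Among 16 KDM genes 11 rose and 2 fell. Kdm4b, a demethylase of H3K9, rose by 1.09 ± 0.06 (adjusted p = 7.97e-09) and Kdm5a, a demethylase of H3K4, by 0.97 ± 0.06 (adjusted p = 2.79e-08), and the 2 that fell were Kdm2b (-1.33 ± 0.05, adjusted p = 5.08e-10) and the H3K4 demethylase Kdm1a, also called LSD1 (-0.68 ± 0.04, adjusted p = 7.74e-09).

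Of 12 SMARC genes, 3 rose and 8 fell. The ATPases of the BAF complex moved in opposite directions: Smarca2 (Brm) was at 55.9 to 65.5 CPM in differentiating and 38.2 to 40.4 CPM in proliferating libraries (0.65 ± 0.06, adjusted p = 7.9e-07), and Smarca4 (Brg1) at 448 to 488 CPM in differentiating and 591 to 619 CPM in proliferating libraries (-0.32 ± 0.04, adjusted p = 1.69e-05). Smarca1, an ISWI-type ATPase, fell by -1.33 ± 0.10 (adjusted p = 1.81e-07). Of 9 CHD genes 2 rose and 2 fell; Chd7 rose by 0.62 ± 0.07 (adjusted p = 5.95e-06), and Chd8 was not called (0.17 ± 0.07, adjusted p = 0.0512). Chd8 was called higher with DESeq2 (adjusted p = 0.0168), with RLE size factors (adjusted p = 0.0217), without differentiating library 1 or 2 (0.23 or 0.22), and without both, where it was 0.31 (adjusted p = 8.53e-10). Of 8 PRDM genes tested, 1 rose and 4 fell.

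**Figure D2:**
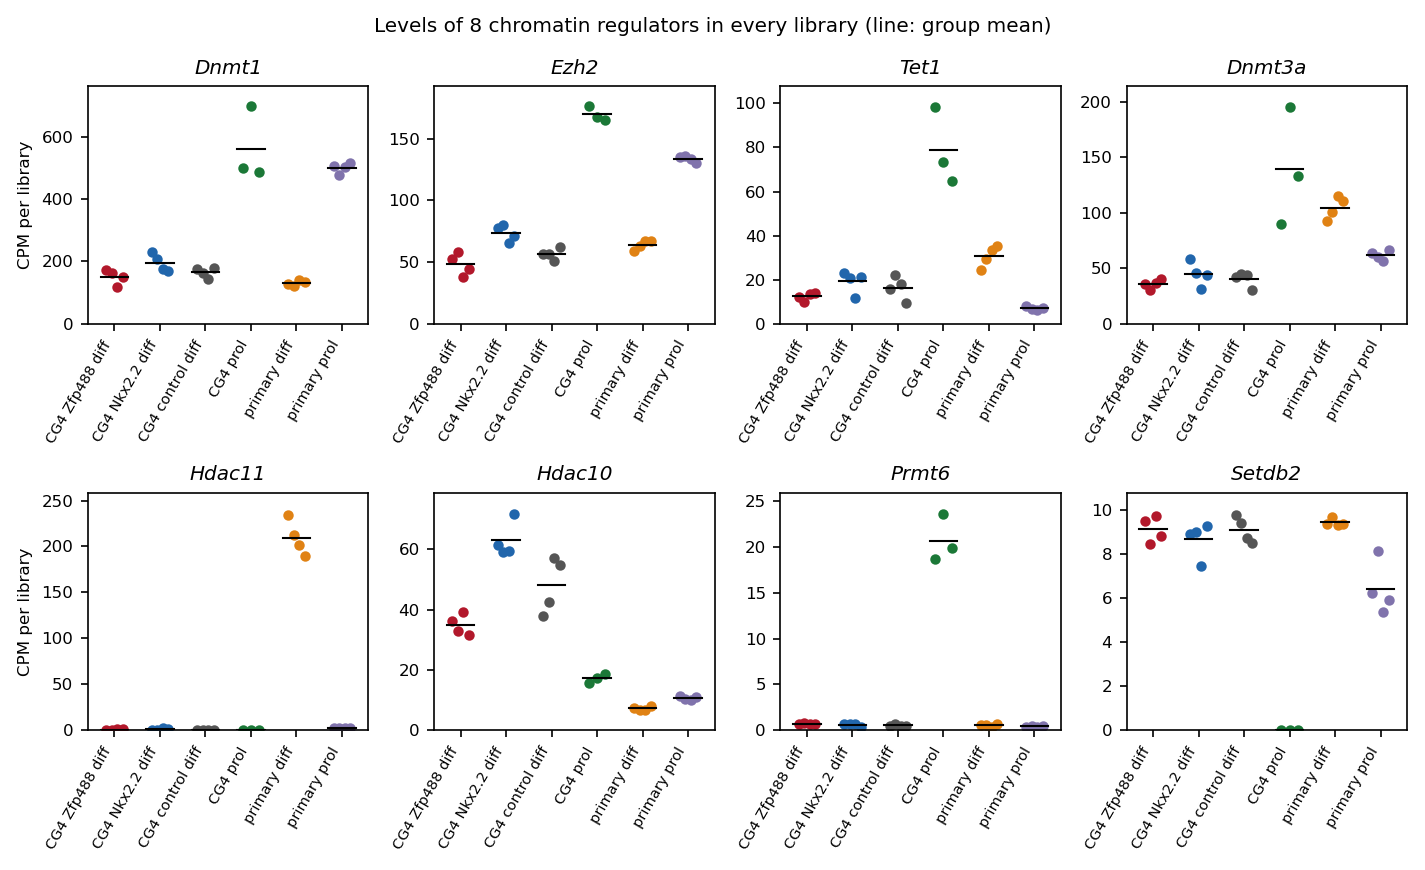
CPM in every library (points) for 8 members, by group, with the group mean as a line; each panel has its own linear axis from 0. Dnmt1 and Ezh2 are lower in differentiating than in proliferating cells of both kinds, Tet1 and Dnmt3a move in opposite directions in CG4 and primary cells, and Hdac11 is high in differentiating primary cells.

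In CG4 cells, differentiation went with lower levels of most members that changed. Of 86 tested, 15 were higher and 44 lower in differentiating control than in proliferating cells. The 51.2% that were lower compare with 33.2% of all genes, and the 17.4% that were higher with 32.5% of all genes; either way, 68.6% of members and 65.7% of all genes were called. With a replicate block 44 members were called, against 53.3% of all genes. That fit also left out control replicate 4, which has no proliferating library of the same number. The median log2 fold change was -0.43 over the members and 0.01 over all genes; Setdb2, at 0 counts in 1 group, lies above either median at its bound too. Vector, read length and gene list changed together with differentiation in this comparison, and their parts cannot be told apart. Replication and division genes moved with it (17 of 18 lower), as did 3 of the 4 measured astrocyte markers (higher, with 288 to 2180 CPM in control differentiating and 2.13 to 37.7 CPM in proliferating libraries) and all 3 Schwann cell markers (higher, with 86.6 to 116 CPM in control differentiating and 23.1 to 29 CPM in proliferating libraries). Their part was not tested.

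Dnmt1 was at 177, 162, 142 and 180 CPM in differentiating control and 499, 698 and 487 CPM in proliferating CG4 libraries (-1.74 ± 0.16, adjusted p = 4.58e-05). Ezh2 was at 56.9, 56.7, 50.6 and 62.5 CPM in control and 177, 168 and 165 CPM in proliferating libraries (-1.55 ± 0.11, adjusted p = 8.34e-06). For both genes the groups were separated, as in primary cells. Tet1, by contrast with primary cells, was at 15.6, 22.2, 18.2 and 9.33 CPM in control and 98.2, 73.5 and 64.8 CPM in proliferating CG4 libraries (-2.24 ± 0.29, adjusted p = 0.000246). Dnmt3a was lower too, at 41.8, 45.1, 44.0 and 30.2 CPM in control and 90.2, 196 and 133 CPM in proliferating libraries (-1.76 ± 0.26, adjusted p = 0.000556). Neither gene's groups overlapped.

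Kmt2a was lower by -2.24 ± 0.27 (adjusted p = 0.000187), and Kdm7a, a demethylase of H3K9 and H3K27, by -2.80 ± 0.31 (adjusted p = 0.000105). Smarcd3, a BAF subunit, was higher, at 40.9 to 52.5 CPM in control and 11.8 to 12.9 CPM in proliferating libraries (1.91 ± 0.14, adjusted p = 1.44e-05). Hdac10, a class IIb enzyme known as a polyamine deacetylase, was at 37.9, 42.5, 57.1 and 54.8 CPM in control and 15.7, 17.3 and 18.8 CPM in proliferating libraries (1.5 ± 0.18, adjusted p = 0.000145). Prdm8, a PR-domain repressor of neural cells, was higher by 1.17 ± 0.37 (adjusted p = 0.0216), a call lost without control replicate 3 or proliferating replicate 1.

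Proliferating CG4 libraries stood apart at 2 members. Prmt6, which methylates H3R2, was between 0.468 and 0.675 CPM in control differentiating libraries and at 18.7, 23.5 and 19.9 CPM in proliferating ones; none of the 20 libraries of the other groups exceeded 0.769 CPM. Setdb2 (ENSRNOG00000021680), a relative of the H3K9 methyltransferase Setdb1, was at 9.79, 9.39, 8.71 and 8.52 CPM in control differentiating libraries, against 0 counts in all 3 proliferating CG4 libraries. With 3 counts over the 3 libraries as the floor, it was at least 348-fold higher in control differentiating CG4 cells and at least 246-fold higher in proliferating primary cells than in proliferating CG4 cells. These libraries stood, counting levels of 1 CPM or more, over 8-fold above the highest other group mean at 231 of 15219 genes (1.52%) and under an eighth of the lowest at 220 (1.45%), and 7 genes, Setdb2 among them, had no count there with at least 5 CPM in every other group. Prmt6 and Setdb2 therefore belong to a wider set of genes at which these libraries differ, and whether counting or the cells account for the values was not tested.

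The 2 differentiation comparisons share no library, and 85 members were tested in both. Of these, 21 were lower in both (24.7%, against 17.5% of all genes tested in both) and 6 were higher in both (7.06%, against 16.9%). Another 16 were lower in CG4 and higher in primary cells (18.8%, against 10.6%), and 6 were higher in CG4 and lower in primary cells (7.06%, against 10.4%). A further 9 were called in neither (10.6%, against 5.46%). Across the 85 members the log2 responses had r = 0.0686 and rho = 0.041, against r = 0.181 and rho = 0.191 across 11675 genes; genes are not independent replicates, and these values only describe the scatter.

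The 21 lower in both were spread over the classes. They held Dnmt1, Ezh2, Kmt2a, Setd1b, Setd4 and Setdb1, the arginine methyltransferases Prmt3, Prmt5, Prmt7 and Prmt9, the demethylases Kdm1a and Kdm2b, Prdm10, Prdm15, Chd1, and the remodeling genes Smarca4, Smarca5, Smarcad1, Smarcc1, Smarcd1 and Smarce1. In primary cells the fall of Setd4 was lost without differentiating libraries 1 and 2 (-0.11, adjusted p = 0.126, against -0.23 with them). The 6 higher in both were Kdm4b, Kdm5b, the H3K27 demethylase Kdm6b, the lysine methyltransferase Setd7, the BAF subunit Smarcd2 and Setdb2 (ENSRNOG00000021680).

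Promoters were set beside these groups because Dnmt1 and Ezh2 are known targets of E2F factors, which drive the genes of DNA replication. The RefSeq table (build GRCr8) held 1 window, 250 bases before to 50 after the start, for 65 of the 89 symbols. The E2F-type words TTTGGCGC and TTTCGCGC, read on both strands, occurred in 4 of these 65 windows (6.15%) and in 206 of 24206 windows of all genes with 1 window (0.851%). All 4 belong to genes lower in both responses (Dnmt1, Ezh2, Kdm1a and Smarce1), of which 19 had a window. Dnmt1 and Ezh2 were the reason for choosing these words, so their matches are no test of a link to E2F factors. Whether E2F factors have a part in the lower levels was not tested. Member windows held a median of 26 CpG, against 8 in all windows, and both words contain CpG. The other words searched contain no CpG, so they are no control for this difference, and its part in the matches was not tested. The word CCAAT, by comparison, was in 43.1% of member windows and 37.8% of all windows. TTTGAA, a word of cell cycle promoters, was in 4.62% of member windows, in none of the 19, and in 18.1% of all windows, and CACTTNA, an NKX2-type word, was in 6.15% of member windows, in 3 of the 19 and in 11.2% of all windows. The 4 windows are shown 5′ to 3′ along the gene with the E2F-type word, in either orientation, in capitals, and they lie at chr8:27762792-27763091 (Dnmt1), chr4:77687134-77687433 (Ezh2), chr5:154121726-154122025 (Kdm1a) and chr10:84676124-84676423 (Smarce1), all on the minus strand. A match is a description of the letters, not of binding.
Dnmt1: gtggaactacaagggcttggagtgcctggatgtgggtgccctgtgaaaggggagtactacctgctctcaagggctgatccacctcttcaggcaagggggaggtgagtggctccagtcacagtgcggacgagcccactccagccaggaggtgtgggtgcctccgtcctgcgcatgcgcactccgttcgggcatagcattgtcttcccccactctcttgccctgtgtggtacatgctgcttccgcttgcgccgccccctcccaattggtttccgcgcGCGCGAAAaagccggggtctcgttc
Ezh2: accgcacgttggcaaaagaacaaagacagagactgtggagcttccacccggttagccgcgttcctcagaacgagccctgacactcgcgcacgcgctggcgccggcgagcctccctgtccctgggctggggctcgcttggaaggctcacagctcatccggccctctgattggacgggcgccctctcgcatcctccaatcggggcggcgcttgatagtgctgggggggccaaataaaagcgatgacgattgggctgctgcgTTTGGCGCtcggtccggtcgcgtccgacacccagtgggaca
Kdm1a: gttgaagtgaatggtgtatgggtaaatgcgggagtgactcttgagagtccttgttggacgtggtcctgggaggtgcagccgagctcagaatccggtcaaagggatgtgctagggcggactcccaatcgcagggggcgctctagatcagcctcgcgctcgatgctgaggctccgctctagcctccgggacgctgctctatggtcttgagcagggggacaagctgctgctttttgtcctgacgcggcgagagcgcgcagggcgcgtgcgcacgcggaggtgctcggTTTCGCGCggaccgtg
Smarce1: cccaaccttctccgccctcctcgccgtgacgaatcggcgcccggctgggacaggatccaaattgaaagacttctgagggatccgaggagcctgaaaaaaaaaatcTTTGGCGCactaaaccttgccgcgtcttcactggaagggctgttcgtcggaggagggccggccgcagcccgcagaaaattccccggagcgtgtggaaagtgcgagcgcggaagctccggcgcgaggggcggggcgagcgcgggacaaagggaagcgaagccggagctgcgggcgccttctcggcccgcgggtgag
In Dnmt1, Ezh2 and Kdm1a the word lies just downstream of the start, and in Smarce1 it lies upstream of it.

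**Figure D3:**
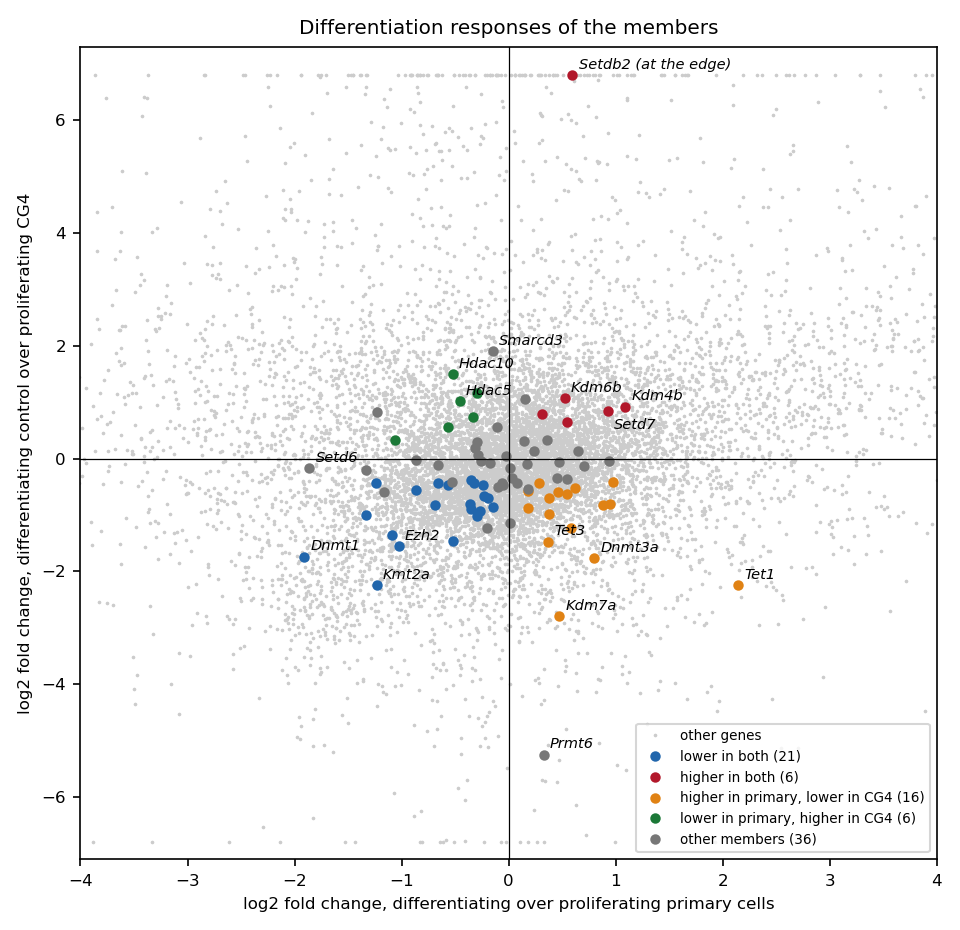
Log2 fold change with differentiation in CG4 cells (y axis) and in primary cells (x axis); coloured points are the 85 members tested in both and grey points other genes. Grey points beyond 4 on the x axis are not drawn, and values beyond the y range, Setdb2 included, are placed at its edge. Dnmt1, Ezh2 and Kmt2a lie at the lower left and Tet1, Tet3, Dnmt3a and Kdm7a at the lower right.

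The difference between the 2 responses was tested as an interaction, and 59 of 87 members were called, 24 with a higher and 35 with a lower value in CG4, against 69.2% of all genes (33.8% higher and 35.4% lower). Tet1 differed by -4.35 ± 0.32 (adjusted p = 2.41e-08), being at 16.3 ± 5.39 CPM in control differentiating and 78.8 ± 17.3 CPM in proliferating CG4 cells, and at 30.66 ± 4.80 and 7.09 ± 0.72 CPM in differentiating and proliferating primary cells. Dnmt3a differed by -2.52 ± 0.27 (adjusted p = 1.27e-06), Tet3 by -1.80 ± 0.25 (adjusted p = 1.3e-05) and Chd7 by -1.09 ± 0.18 (adjusted p = 6.96e-05). On the other side were Hdac10 (2.07 ± 0.19, adjusted p = 1.78e-07), Hdac9 (2.08 ± 0.47, adjusted p = 0.00112) and Smarcd3 (2.10 ± 0.14, adjusted p = 8.24e-09). For Dnmt1 the difference was 0.22 ± 0.16 and did not pass (adjusted p = 0.25); for Kdm1a it was -0.09 ± 0.09 (adjusted p = 0.388) and for Kdm4b -0.12 ± 0.12 (adjusted p = 0.36). Ezh2 was lower in both but more so in CG4, by -0.49 ± 0.10 (adjusted p = 0.000754).

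Hdac11 differed widely between the kinds of cell. In differentiating CG4 cells it was at 0.067, 0.162, 0.739 and 0.541 CPM in control libraries, and no Zfp488 or Nkx2.2 library exceeded 2.44 CPM, against 189 to 235 CPM in differentiating primary libraries (log2 fold change of control CG4 over primary -9.09 ± 0.36, adjusted p = 4.4e-11). Proliferating CG4 cells had 1 count in all, against 291 in proliferating primary cells, whose reads were longer. Control differentiating over proliferating CG4 cells gave a ratio of 43.3 with an exact 95% interval of 7.5 to 1740, which covers counting error only.

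Levels also differed between CG4 and primary cells in both states. In differentiation 39 of 87 members were higher and 30 lower in control CG4 than in primary cells, against 73% of all genes called (36.8% higher and 36.2% lower). Of the 8 oligodendrocyte markers, 7 were lower in the same comparison (10300 to 17900 CPM in control CG4 and 91700 to 102000 CPM in primary libraries), as were 3 of 4 astrocyte markers, and their part was not tested. Prdm8 was at 20.2, 25.8, 30.5 and 25.2 CPM in control CG4 and 2.73, 3.00, 3.00 and 2.51 CPM in primary libraries (3.18 ± 0.28, adjusted p = 1.22e-07), and Hdac10 was higher by 2.74 ± 0.13 (adjusted p = 2.47e-10). The PR-domain gene Prdm6 was higher by 2.83 ± 0.47 (adjusted p = 6.66e-05), and Dnmt3b, with 5.23 to 9.48 CPM in CG4 and 1 to 1.93 CPM in primary libraries, by 2.56 ± 0.24 (adjusted p = 2.19e-07). Chd5, a NuRD-type remodeler of neurons, was lower by -1.76 ± 0.23 (adjusted p = 7.41e-06), and Kdm3b, an H3K9 demethylase, by -1.32 ± 0.08 (adjusted p = 3.66e-09).

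In proliferation 42 of 87 members were higher and 14 lower in CG4, against 71.2% of all genes called (39.2% higher and 32% lower). By direction, 48.3% of members were higher and 16.1% lower. Reads were 100 bases long in these CG4 and 150 bases long in these primary libraries. The part of read length cannot be told apart from that of the kind of cell. All 4 measured astrocyte markers were lower in CG4 here (2.13 to 37.7 CPM in CG4 and 166 to 177 CPM in primary libraries), as were both microglia markers (3.39 to 5.57 CPM and 442 to 461 CPM in CG4 and primary libraries) and both fibroblast, pericyte and endothelium markers (0.125 to 0.607 CPM and 57 to 78.9 CPM in CG4 and primary libraries), and their part was not tested. Prmt6 (5.59 ± 0.22, adjusted p = 1.36e-11), Prdm6 (4.11 ± 0.52, adjusted p = 5.5e-06), Tet1 (3.45 ± 0.24, adjusted p = 1.05e-08) and Kdm7a (2.71 ± 0.25, adjusted p = 1.79e-07) were higher in CG4. Smarcd3 was lower (-1.29 ± 0.11, adjusted p = 5.08e-08), as was Chd5 (-1.87 ± 0.26, adjusted p = 1.25e-05). Dnmt1 was at 499, 698 and 487 CPM in proliferating CG4 and 507, 478, 505 and 516 CPM in proliferating primary libraries; the groups overlapped and it was not called (0.14 ± 0.12, adjusted p = 0.298).

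In the fit without a replicate block, expression of Zfp488 during CG4 differentiation changed few members. Of 90 tested, 3 were higher and 3 lower in Zfp488 than in control cells, 6.67% against 9.05% of all genes (5.89% higher and 3.16% lower). Replicate numbers pair these libraries, and with the replicate as a block 8 were higher and 16 lower, against 24.1% of all genes, so the share of members stayed near that of other genes in both fits. DESeq2 called 7 higher and 8 lower, against 14.5% of all genes. Kdm8, a JmjC protein of the demethylase family, was at 40.3, 36.3, 42.5 and 34.8 CPM in Zfp488 and 49.9, 53.4, 61.7 and 63.6 CPM in control libraries (-0.56 ± 0.09, adjusted p = 0.0053). The groups did not overlap and the call held without any 1 of the 12 libraries.

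Hdac5, a class IIa deacetylase, was at 364, 460, 372 and 467 CPM in Zfp488 and 286, 333, 254 and 300 CPM in control libraries (0.52 ± 0.12, adjusted p = 0.0251). Setd7 was at 66.5, 89.6, 107 and 130 CPM in Zfp488 and 61.7, 67.8, 64.4 and 55.9 CPM in control libraries, with overlap (0.66 ± 0.17, adjusted p = 0.0295), and Setd3 rose by 0.22 ± 0.06 (adjusted p = 0.037). Prmt3, which methylates a ribosomal protein, fell by -0.34 ± 0.09 (adjusted p = 0.0348), and Setd4 by -0.27 ± 0.07 (adjusted p = 0.0281). Each of these 5 calls was lost when some single libraries were left out, 5 of 12 for Hdac5 and Setd4, 7 for Setd7 and Prmt3 and 9 for Setd3. No DNMT, TET, EZH, PRDM, CHD or SMARC gene was called in the edgeR fit without the block, where 1 DNMT, 1 PRDM, 1 CHD and 5 SMARC genes were called with it. Chd5 also passed with DESeq2, which had no block (-0.77, adjusted p = 0.0382). Dnmt3b, for example, was at 4.80, 5.49, 7.06 and 5.14 CPM in Zfp488 and 5.23, 7.45, 9.48 and 7.71 CPM in control libraries (-0.40 ± 0.18, adjusted p = 0.207 without and 0.032 with the block). The second Setdb2 identifier was at 2.92, 2.23, 2.21 and 3.00 CPM in Zfp488 and 2.37, 1.89, 1.38 and 1.89 CPM in control libraries and was called with the block alone (0.47 ± 0.20, adjusted p = 0.16 without and 0.0396 with it). Summed oligodendrocyte markers were at 17900 to 33500 CPM in Zfp488 and 10300 to 17900 CPM in control libraries, with 3 of 8 called higher, and their part in the members' changes was not tested.

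Expression of Nkx2.2 left 2 members higher and 6 lower than in control cells, 8.89% of 90, against 10.5% of all genes (6.09% higher and 4.44% lower); with the block 10 were higher and 13 lower, against 26.1%, and with DESeq2 4 were higher and 11 lower, against 15.7%. The control libraries are the same as for Zfp488. Hdac7, a class IIa deacetylase, was at 23.9, 23, 19.6 and 19 CPM in Nkx2.2 and 13.1, 13.5, 12 and 11.3 CPM in control libraries, without overlap (0.79 ± 0.10, adjusted p = 0.000434). Hdac8 was at 10.5, 11.2, 14.3 and 10.7 CPM in Nkx2.2 and 16.1, 16.7, 16.4 and 17.1 CPM in control libraries, again without overlap (-0.49 ± 0.10, adjusted p = 0.00857). Both calls held without any 1 of the 12 libraries.

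Chd3, a remodeler of the NuRD complex, rose by 0.42 ± 0.10 with Nkx2.2 (adjusted p = 0.0183). Prdm8 fell by -0.49 ± 0.14 (adjusted p = 0.0413), Prmt9, a splicing factor methyltransferase, by -0.41 ± 0.10 (adjusted p = 0.0261), Kdm8 by -0.33 ± 0.09 (adjusted p = 0.0445), Kdm5b by -0.30 ± 0.08 (adjusted p = 0.0357) and Hdac2 by -0.27 ± 0.07 (adjusted p = 0.0276). Each of these 6 was lost without some single libraries, 3 of 12 for Chd3 and 4 to 7 for the others. With only the 8 libraries compared in the fit, 3 members were higher and 1 lower. Ezh2 was at 77.6, 79.7, 65.3 and 71.2 CPM in Nkx2.2 and 56.9, 56.7, 50.6 and 62.5 CPM in control libraries (0.39 ± 0.12). In the edgeR fit of 12 libraries it did not pass without the block (adjusted p = 0.0647) and passed with it (adjusted p = 0.00612). Without a block, Ezh2 also passed with DESeq2 (adjusted p = 0.031) and with only the 8 libraries compared (adjusted p = 0.0336). Of the 18 replication and division genes, 2 were higher and none lower with Nkx2.2. They summed to 1070 to 1330 CPM in Nkx2.2 and 927 to 1170 CPM in control libraries, and their part in the value of Ezh2 was not tested. Summed Schwann cell markers were at 189 to 900 CPM in Nkx2.2 and 86.6 to 116 CPM in control libraries, and their part was not tested. For Smarca2 the adjusted p was 0.0947 without and 0.00474 with the block (0.34 ± 0.12).

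**Figure D4:**
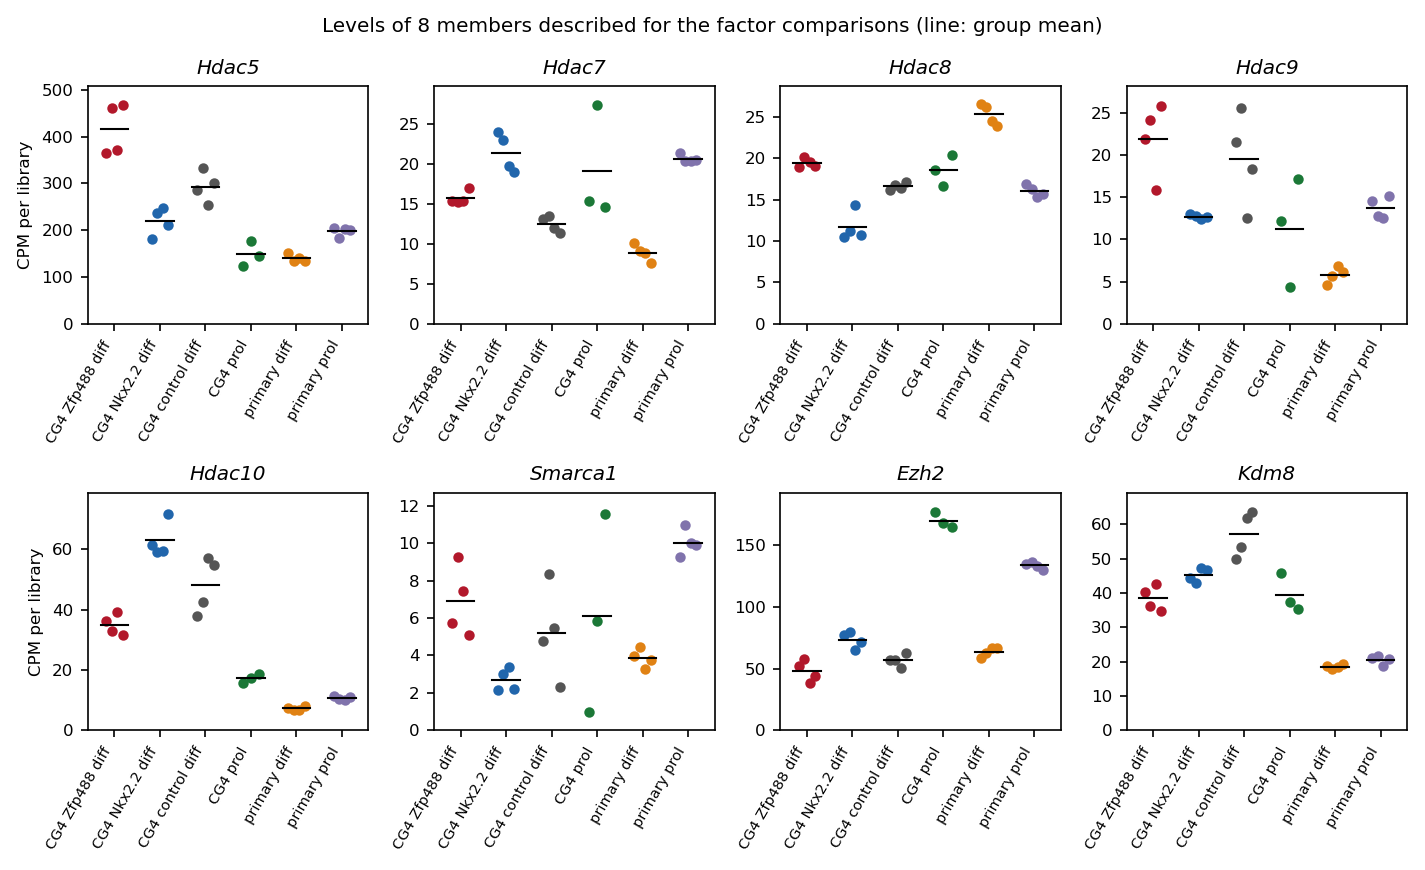
CPM in every library (points) for 8 members described for the factor comparisons, by group, with the group mean as a line; each axis is linear and starts at 0. Hdac5 is highest in Zfp488 libraries, Hdac7 and Hdac10 are higher in Nkx2.2 than in Zfp488 libraries, and Hdac8, Hdac9 and Smarca1 are lower in Nkx2.2 than in Zfp488 libraries.

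Set directly against each other, the factors separated more members. In Zfp488 cells 9 were higher and 15 lower than in Nkx2.2 cells, 26.7% of 90, against 25.2% of all genes (13.2% higher and 12% lower); with the block 12 were higher and 31 lower, against 42.3% of all genes. Of the 8 oligodendrocyte markers, 5 were higher and none lower in Zfp488 than in Nkx2.2 cells in the same test. They summed to 17900 to 33500 CPM in Zfp488 and 6380 to 17500 CPM in Nkx2.2 libraries, and their part in the members' changes was not tested. Histone deacetylases held 5 of the 24 calls. Hdac5 was at 364, 460, 372 and 467 CPM in Zfp488 and 181, 237, 248 and 210 CPM in Nkx2.2 libraries (0.92 ± 0.13, adjusted p = 0.000334). Hdac8 was higher by 0.73 ± 0.10 (adjusted p = 0.000401), and Hdac9 was at 21.9, 24.2, 15.8 and 25.8 CPM in Zfp488 and 13.0, 12.8, 12.4 and 12.6 CPM in Nkx2.2 libraries (0.79 ± 0.20, adjusted p = 0.0129). Hdac10 went the other way, with 36.2, 32.8, 39.3 and 31.6 CPM in Zfp488 and 61.3, 59.1, 59.4 and 71.8 CPM in Nkx2.2 libraries (-0.85 ± 0.13, adjusted p = 0.000793), as did Hdac7 (-0.45 ± 0.10, adjusted p = 0.00721). None of these 5 genes had overlapping groups, and each call held without any 1 of the 12 libraries.

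Smarca1 was at 5.74, 9.28, 7.45 and 5.11 CPM in Zfp488 and 2.14, 3.03, 3.36 and 2.19 CPM in Nkx2.2 libraries (1.36 ± 0.33, adjusted p = 0.011). Ezh2 was at 52.1, 57.9, 38.2 and 44.3 CPM in Zfp488 and 77.6, 79.7, 65.3 and 71.2 CPM in Nkx2.2 libraries (-0.61 ± 0.12, adjusted p = 0.0038). The groups of both genes were apart. Of the 18 replication and division genes 7 were lower and none higher in Zfp488 than in Nkx2.2 cells in the same test, at a summed level of 721 to 1100 CPM in Zfp488 and 1070 to 1330 CPM in Nkx2.2 libraries, and their part in the value of Ezh2 was not tested. Smarca2 was lower by -0.48 ± 0.12 (adjusted p = 0.0121) and Prdm15 by -0.52 ± 0.10 (adjusted p = 0.00368). Kmt2a was lower by -1.06 ± 0.34 (adjusted p = 0.0389), but its libraries ranged over 19.2 to 30.1 CPM with Zfp488 and 20 to 77.9 CPM with Nkx2.2, and 6 of 12 left-out libraries ended the call. Dnmt1 was at 171, 163, 117 and 149 CPM in Zfp488 and 229, 207, 177 and 169 CPM in Nkx2.2 libraries (-0.38 ± 0.13). Its adjusted p in edgeR was 0.052 without the block and 0.0034 with it. With DESeq2, which had no block, Dnmt1 passed as well (adjusted p = 0.0356).

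**Figure D5:**
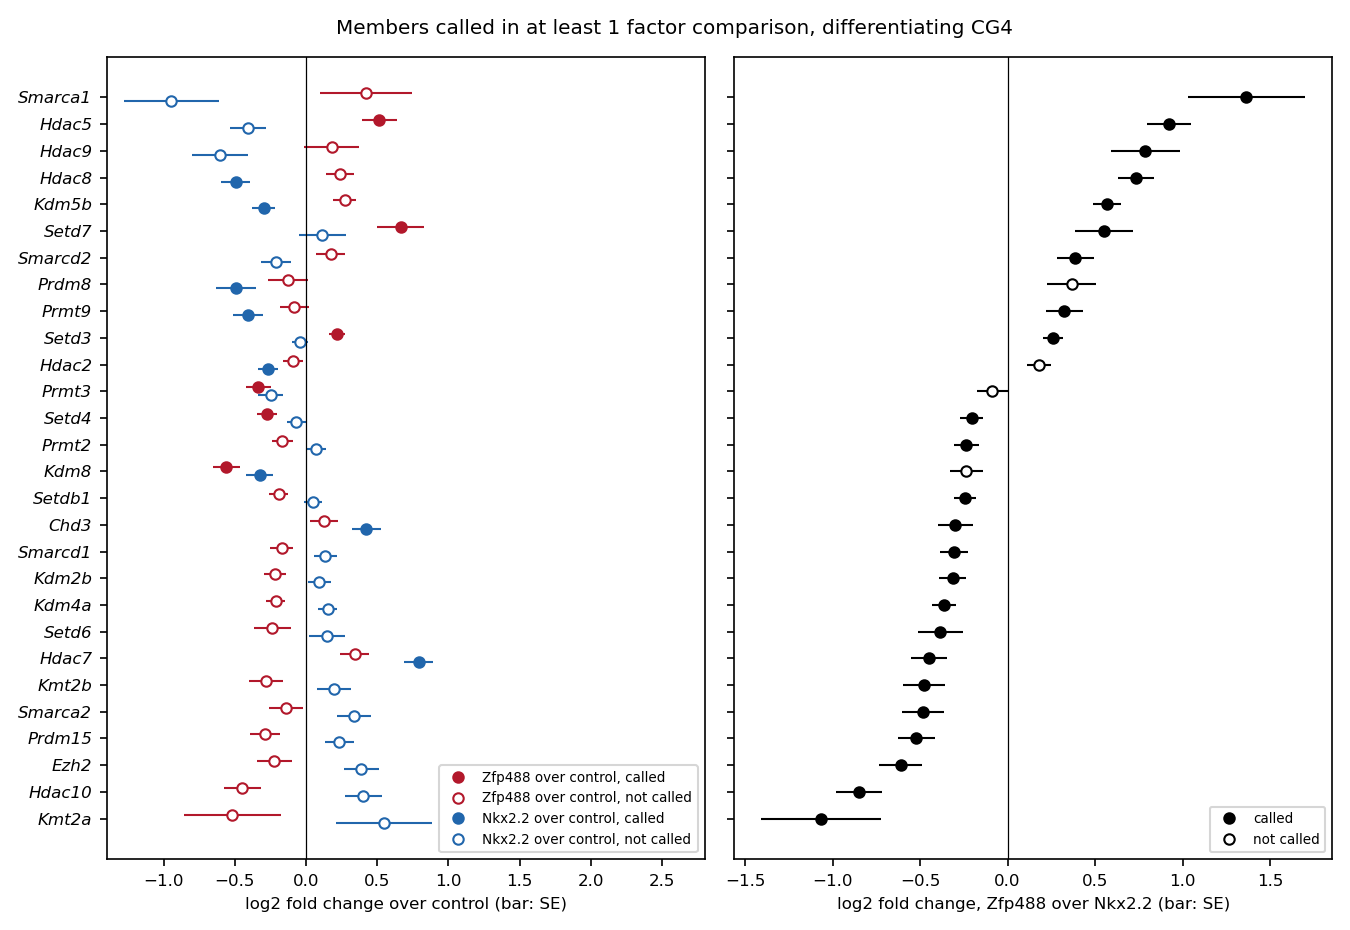
Log2 fold changes (points) with their standard errors (bars) for the 28 members called in at least 1 of the 3 comparisons of differentiating CG4 cells; filled points are called. Left, Zfp488 and Nkx2.2 over the shared control; right, Zfp488 over Nkx2.2, by which the genes are ordered. Kdm8 is called lower with both factors, and Hdac5 and Hdac10 lie on opposite sides of 0 in the right panel.

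In the authors' deposited tables, 7 members were higher and 8 lower with Zfp488, against 14% of all genes listed with an adjusted p, and 3 were higher and 8 lower with Nkx2.2, against 14.4%. All 6 and all 8 members called above were among them. Other chromatin genes outside the rule, such as Polycomb, MBD and acetyltransferase genes, were tested in the same fits. Of 77 tested, 3 rose and 5 fell with Zfp488 (9.05% of all genes called) and 2 rose and none fell with Nkx2.2 (10.5%). In primary differentiation 22 rose and 37 fell of 74 tested (41.5% and 43.2% of all genes). In CG4 cells 12 were higher and 44 lower of 73 tested (32.5% and 33.2% of all genes). Their median log2 fold change in CG4 was -0.58, against -0.43 over the members and 0.01 over all genes, so the lower levels were not particular to the members. Uhrf1, the partner that brings Dnmt1 to newly replicated DNA, was at 49.19 ± 8.19 CPM in control differentiating (n = 4) and 216 ± 24.8 CPM in proliferating CG4 cells (n = 3), and at 32.79 ± 1.56 and 177.3 ± 4.53 CPM in differentiating and proliferating primary cells (SD, n = 4 each).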

How the data were processed

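RNA-seq of 23 rat libraries was analysed from gene counts. Per the submitters' processing notes, reads were trimmed with Trimmomatic 0.36, aligned to rn6 with STAR 2.5.2b and counted with featureCounts of Subread 1.5.2. Annotation release, strandedness and handling of multiply mapped reads were not stated there. The deposited counts per gene are whole numbers and were not normalized. The authors' deposited comparison tables for the differentiating CG4 cells give log2 fold changes, p-values and, per library, a signal of counts over a size factor, which was not analysed. They supplied the gene symbols and the authors' calls. Libraries were grouped by their labels, whose titles call them biological replicates, so p-values measure the spread between these libraries.

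Differences were tested by edgeR 4.0.16 under R 4.3.3 (filterByExpr, TMM, robust quasi-likelihood test, Benjamini-Hochberg adjustment over all genes tested, threshold 0.05). The 3 factor comparisons share 1 fit of the 12 differentiating CG4 libraries. Comparisons with other groups used the genes listed in all files involved. CPM divides a count by the library's total over genes listed in all 23 files times its TMM factor. The procedure was also run on simulated counts with few changed genes and no pairing of libraries. The data differ in both respects, so that run is no support for the calls given here. The members and lists, including the promoter words, were chosen with earlier results of these data known. Genes with values are a fixed panel of 24 symbols plus, per comparison, the 4 called members with the largest rise and the 4 with the largest fall among those of at least 1 CPM without overlap; a gene named for 1 comparison may be given in another. Setd7, Kdm5b, Uhrf1 and the members named in the joint response groups were chosen after their values were seen. The values of 1 member that the rule names are not reported here; counts include it.

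Deviations from the group means of same-numbered differentiating CG4 libraries correlated at 0.284 to 0.573 between the factors, 0.19 to 0.71 between Zfp488 and control and 0.16 to 0.563 between Nkx2.2 and control libraries, every pair over 0.1, so these numbers were taken as pairing the libraries. Alternatives were DESeq2 1.42.0, other size factors, no filter on low counts, fits on fewer or more libraries or on shared genes, a replicate block and leaving out libraries. Replicate libraries differed by more than sampling noise in every pair (chi-square over degrees of freedom 1.77 to 265), but not to a like degree. The values were 2.15 to 4.48 in proliferating and 1.77 to 37.1 in differentiating primary cells. In CG4 cells they were 20.7 to 148 in differentiation and 153 to 265 in proliferation. The p-values and shares called in primary and CG4 comparisons rest on these unlike spreads.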

Additional observations from a re-analysis of the deposited data

Results flagged for a closer look

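Among 238 groups of 4 libraries of the named genes, 10 held a library whose gap to the next one made up most of the group's range. Chance flags about 1 group in 20, and such a gap can be small in CPM. In differentiating primary cells the flagged libraries were Dnmt3b at 1.93 CPM in replicate 3 (next 1.14), Setdb2 (ENSRNOG00000021680) at 9.66 CPM in replicate 2 (next 9.38) and Kdm2b at 33.1 CPM in replicate 2 (next 37.3). In proliferating primary cells they were Setd4 at 25.5 CPM in replicate 2 and Hdac7 at 21.3 CPM in replicate 1. In differentiating CG4 cells they were Smarca4 at 364 CPM in Zfp488 replicate 3, Hdac7 at 17 CPM in Zfp488 replicate 4, Kdm5a at 106 CPM in Zfp488 replicate 2, Hdac3 at 37.6 CPM in Nkx2.2 replicate 2 and Prmt6 at 0.675 CPM in control replicate 2.

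By the interaction test of edgeR at an adjusted p under 0.05, the change with differentiation differed between CG4 and primary cells for 29 of the 48 named genes. Of all genes tested, 69.2% were called. Some named genes were chosen by their size in this same comparison, so the count is no result about the members. Values are the CG4 minus the primary log2 fold change. It was lower in CG4 for the DNA methylation genes Tet1 (-4.35), Dnmt3a (-2.52) and Tet3 (-1.80), the demethylases Kdm7a (-3.23), Kdm5a (-1.34) and Kdm3b (-0.68), and the methyltransferase genes Prmt6 (-5.54), Setd3 (-1.71), Kmt2a (-0.97), Ezh2 (-0.49), Prmt3 (-0.39) and Setd4 (-0.39). Chd7 (-1.09), Hdac8 (-0.79) and Smarca2 (-0.48) were lower in CG4 as well. It was higher in CG4 for the deacetylases Hdac9 (2.08), Hdac10 (2.07), Hdac5 (1.52), Hdac7 (0.63) and Hdac2 (0.26), for Smarcd3 (2.10), Setd6 (1.73), Prdm8 (1.51), Ezh1 (1.11), Prmt1 (0.89), Prmt5 (0.85), Kdm8 (0.71) and Kdm2b (0.38). When single libraries of the 15 were left out, the call for Kdm2b was lost in 13 cases (0.23 without proliferating CG4 replicate 1). The call for Hdac7 was lost in 11 cases (0.46 without proliferating CG4 replicate 3). It held without proliferating CG4 replicate 2, where the value was 0.97. For Prmt3 the call was lost in 2 cases (without proliferating CG4 replicate 1 or 3) and for Hdac2 in 1 (without proliferating CG4 replicate 1). The fitted difference for Setdb2 (ENSRNOG00000021680) was 10.69, which rests on 0 counts in proliferating CG4 cells, depends on the prior count and is no bound. Vector, read length and gene list differ along with the state in CG4 cells, and their part cannot be told apart.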

How the results depend on the processing

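The total of members called in the primary, CG4 and cross comparisons stayed within 1.5 times under every alternative run. Against control, Zfp488 gave 15 members with DESeq2 and 24 with the replicate block, where the pairing of the libraries is used, instead of 6, and 1 to 11 when a library was left out (fewest without Zfp488 replicate 2 or 4). Nkx2.2 gave 15 members with DESeq2, 23 with the replicate block and 4 (3 higher, 1 lower) with only the 8 libraries compared, instead of 8 (2 higher, 6 lower), and 2 to 12 when a library was left out (fewest without control replicate 2 or Nkx2.2 replicate 2 or 4). Zfp488 against Nkx2.2 gave 43 with the block instead of 24, and 16 to 36 when a library was left out (fewest without Zfp488 replicate 2 or 4). The causes were not tested. Leaving out a library gave 65 to 71 members in primary and 49 to 58 in CG4 differentiation, 56 to 62 for the difference of responses, 65 to 74 between CG4 and primary cells in differentiation and 52 to 63 in proliferation. Replicate numbers did not pair the primary libraries (correlations -0.0443 to 0.103) or the CG4 states (-0.13 to 0.0449). A block there gave 69 and 44 members, in CG4 with control replicate 4 left out as well. As alternatives chosen after seeing the data, primary differentiation gave 71 members (36 higher, 35 lower) without differentiating libraries 1 and 2 and 70 (30 higher, 40 lower) without 3 and 4. Prmt6 outside proliferating CG4 cells and Hdac11 in CG4 cells are limited by depth.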
